A study of Rattus norvegicus with 80 samples.

Results

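The matrix metalloproteinases Mmp2 (ENSRNOG00000016695) and Mmp9 (ENSRNOG00000017539) and the inhibitor Timp1 (ENSRNOG00000010208) were followed by identifier through a count table of rat mammary tissue and tumors, as 3 of its 32883 genes. All 3 passed the filter on low counts in every fit below. The series holds 80 RNA sequencing libraries of Rattus norvegicus in 19 groups, from wildtype rats and from 3 rat lines mutated in Nf1, the gene of the Ras regulator neurofibromin. The labels call the lines IF, PS and IFPS; they give no allele, strain, age or sex and do not say which libraries share an animal, so the p-values measure the spread between these samples. Whole mammary pads, which hold the gland within its fat, came from 6 wildtype, 3 IF, 6 PS and 6 IFPS samples. Mammary epithelial cells (MECs), mature adipocytes and fibroblasts each had 3 samples in wildtype and in each mutated line, and tumors came from 5 IF, 9 PS and 9 IFPS samples. Per the labels, MECs and fibroblasts were grown in culture to near confluency, whereas pads, tumors and mature adipocytes were extracted by another method and with no culture named. The series text calls the normal cell types flow sorted. Tissue, culture and extraction therefore cannot be told apart between MECs or fibroblasts and the pads. Between mature adipocytes and pads, cell type and the isolation of the cells cannot be told apart.

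Matrix metalloproteinases are zinc-dependent enzymes that cut proteins of the extracellular matrix, and they are made as inactive precursors that have to be activated after secretion. Mmp2 and Mmp9 are the gelatinases, which degrade denatured collagen and the collagen of basement membranes. Mmp2 is typically made by fibroblasts and other stromal cells, and Mmp9 is strongly inducible and abundant in granulocytes and macrophages. Timp1 is a secreted protein that blocks the active site of most metalloproteinases and also binds the precursor of Mmp9. In the mammary gland these proteins take part in duct branching, in the loss of the lactating gland after weaning and in the stroma around tumors. Transcript counts measure none of the protein amounts, activation or enzyme activity.

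The Timp1 promoter is shown because Timp1 alone of the members was matched in RefSeq's promoter table. Its 250 bases upstream of the annotated start lie at chrX:3771123-3771372 on the minus strand of GRCr8, as listed by RefSeq, and are written 5′ to 3′ with searched motifs in capitals. No promoter of Mmp2 or Mmp9 is shown.
Timp1 promoter: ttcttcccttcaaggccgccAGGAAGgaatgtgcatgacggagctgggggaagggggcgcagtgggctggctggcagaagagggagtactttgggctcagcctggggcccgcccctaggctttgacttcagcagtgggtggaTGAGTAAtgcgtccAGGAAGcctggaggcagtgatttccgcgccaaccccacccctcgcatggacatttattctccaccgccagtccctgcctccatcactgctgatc
The window was searched on both strands for the AP-1 consensus TGAGTCA, its variant TGAGTAA and the Ets motif AGGAAG, which do not overlap one another in this window. TGAGTAA occurred once, with its first base at position -108 from the start, and 2.38% of 33469 promoter windows of the same length held it. AGGAAG occurred at positions -230 and -94, and 29.5% of the windows held it. TGAGTCA was not found in these bases, and 4.05% of the windows held it. A match of letters is a description and does not show that a factor binds there.

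Levels are given in CPM, the count of a gene per 1000000 counts of its library, with each library's total scaled by the trimmed mean of M values (TMM). Total counts per library ranged from 17344717 to 37293141. The members were deeply counted in most groups: Mmp2 had at least 623 counts in every library and Timp1 at least 175, whereas Mmp9 had as few as 9 counts in a pad and 10 in a tumor. Levels of different members are not compared with each other, because transcript lengths were not used here. Since bulk RNA was sequenced, fewer cells of a type and less RNA per cell cannot be told apart.

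Several libraries stood apart before any member was considered. To describe what bulk samples hold, 4 scores were computed from the wildtype libraries as the mean log2 CPM of genes at least 4-fold higher in 1 isolated cell type than in each of the other 2 (902 MEC, 1051 adipocyte and 310 fibroblast genes) or at least 4-fold higher in pads than in each isolated cell type (1015 pad-only genes). The 3 members were left out of every set. IF adipocytes had fibroblast scores of 2.02, 1.38, and 1.94 against 0.14 to 0.45 in wildtype adipocytes, and pad-only scores of 0.13, -0.45, and 0.34 against -1.48 to -1.37. IFPS tumors 8 and 9 had MEC scores of -0.33 and -1.01, IFPS tumor 6 had 0.73, and the other 20 tumors lay between 2.03 and 3.13. Known marker genes of each cell type were not analysed here, because the identifiers were not paired with symbols, so the labelled cell types are taken as given.

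In wildtype rats each member had its own order of tissues. Mmp2 was highest in fibroblasts, lower in MECs, lower again in pads and lowest in adipocytes. In wildtype fibroblasts Mmp2 had 5533, 4363 and 3252 CPM, in MECs 3214, 2132 and 2889.9 CPM and in adipocytes 89.7, 152 and 228 CPM. The 6 wildtype pads had 476 at the lowest, 823 at the median and 989.8 at the highest CPM. No wildtype tissue overlapped another in Mmp2. The share of all genes without such overlap was not computed, here or for the other groups below. The adipocyte mean was 156 ± 69.1 (SD, n = 3) CPM and the fibroblast mean 4382 ± 1141 (SD, n = 3) CPM, a log2 difference of -4.91 ± 0.39 (SE, edgeR adjusted p = 1.3e-07). MECs and fibroblasts differed by -0.70 ± 0.33 (SE, edgeR adjusted p = 0.1) on the log2 scale, which did not pass the threshold of 0.05. With the other wildtype tissues left out of the fit that difference was -0.67 with an edgeR adjusted p of 0.04.

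Mmp9 followed a different order, with adipocytes at the top and pads at the bottom. Wildtype adipocytes had 97.9, 336 and 436 CPM of Mmp9, MECs 12.5, 59.8 and 62.3 CPM and fibroblasts 12.6, 35.8 and 20.2 CPM. The 6 wildtype pads had 0.798 at the lowest, 4.12 at the median and 10.1 at the highest CPM, all below every isolated cell library. Replicates of Mmp9 varied several-fold within a cell type, and MECs and fibroblasts overlapped. Adipocytes exceeded fibroblasts by 3.57 ± 0.85 (SE, edgeR adjusted p = 0.0024) on the log2 scale, and pads lay below adipocytes with a log2 difference of -5.88 ± 0.71 (SE, edgeR adjusted p = 5e-06). Pads also lay below MECs, with a log2 difference of -3.28 ± 0.67 (SE, edgeR adjusted p = 0.00062), and below fibroblasts, with -2.32 ± 0.67 (SE, edgeR adjusted p = 0.0072). The last difference missed the threshold without wildtype fibroblast 2, at -1.76 with an edgeR adjusted p of 0.059.

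Timp1, the inhibitor, split the wildtype libraries into isolated cells and pads. MECs had 1442, 1049 and 1027 CPM, adipocytes 1238, 1178 and 1034 CPM and fibroblasts 881, 745 and 575 CPM. The 6 wildtype pads had 27.9 at the lowest, 35.1 at the median and 42.7 at the highest CPM. The pad mean of 34.6 ± 5.32 (SD, n = 6) CPM was 33.9-fold below that of MECs, 33.2-fold below that of adipocytes and 21.2-fold below that of fibroblasts. In edgeR's fit the log2 differences of pads were -5.19 ± 0.17 (SE, edgeR adjusted p = 1.7e-10) to MECs, -5.08 ± 0.17 (SE, edgeR adjusted p = 3.7e-11) to adipocytes and -4.53 ± 0.17 (SE, edgeR adjusted p = 2.1e-10) to fibroblasts. Among isolated cells, MECs exceeded fibroblasts by 0.66 ± 0.19 (SE, edgeR adjusted p = 0.011) and adipocytes exceeded fibroblasts by 0.55 ± 0.19 (SE, edgeR adjusted p = 0.023), a call that was lost without wildtype adipocyte 1 (adjusted p = 0.054) and without wildtype fibroblast 3 (adjusted p = 0.076). MECs and adipocytes overlapped and differed by 0.11 ± 0.19 (SE, edgeR adjusted p = 0.64).

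Thus pads had less Mmp9 and less Timp1 than each of the 3 isolated cell types, whereas their Mmp2 lay between adipocytes and MECs. The 3 members differed in 15 of the 18 tests between wildtype tissues, and the tissues differed widely across all genes: of 16226 genes tested, 68.9% differed between pads and MECs, 72.7% between pads and adipocytes, 70.3% between pads and fibroblasts, 63.9% between MECs and adipocytes, 47.3% between MECs and fibroblasts and 60.7% between adipocytes and fibroblasts.

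**Figure D1:**
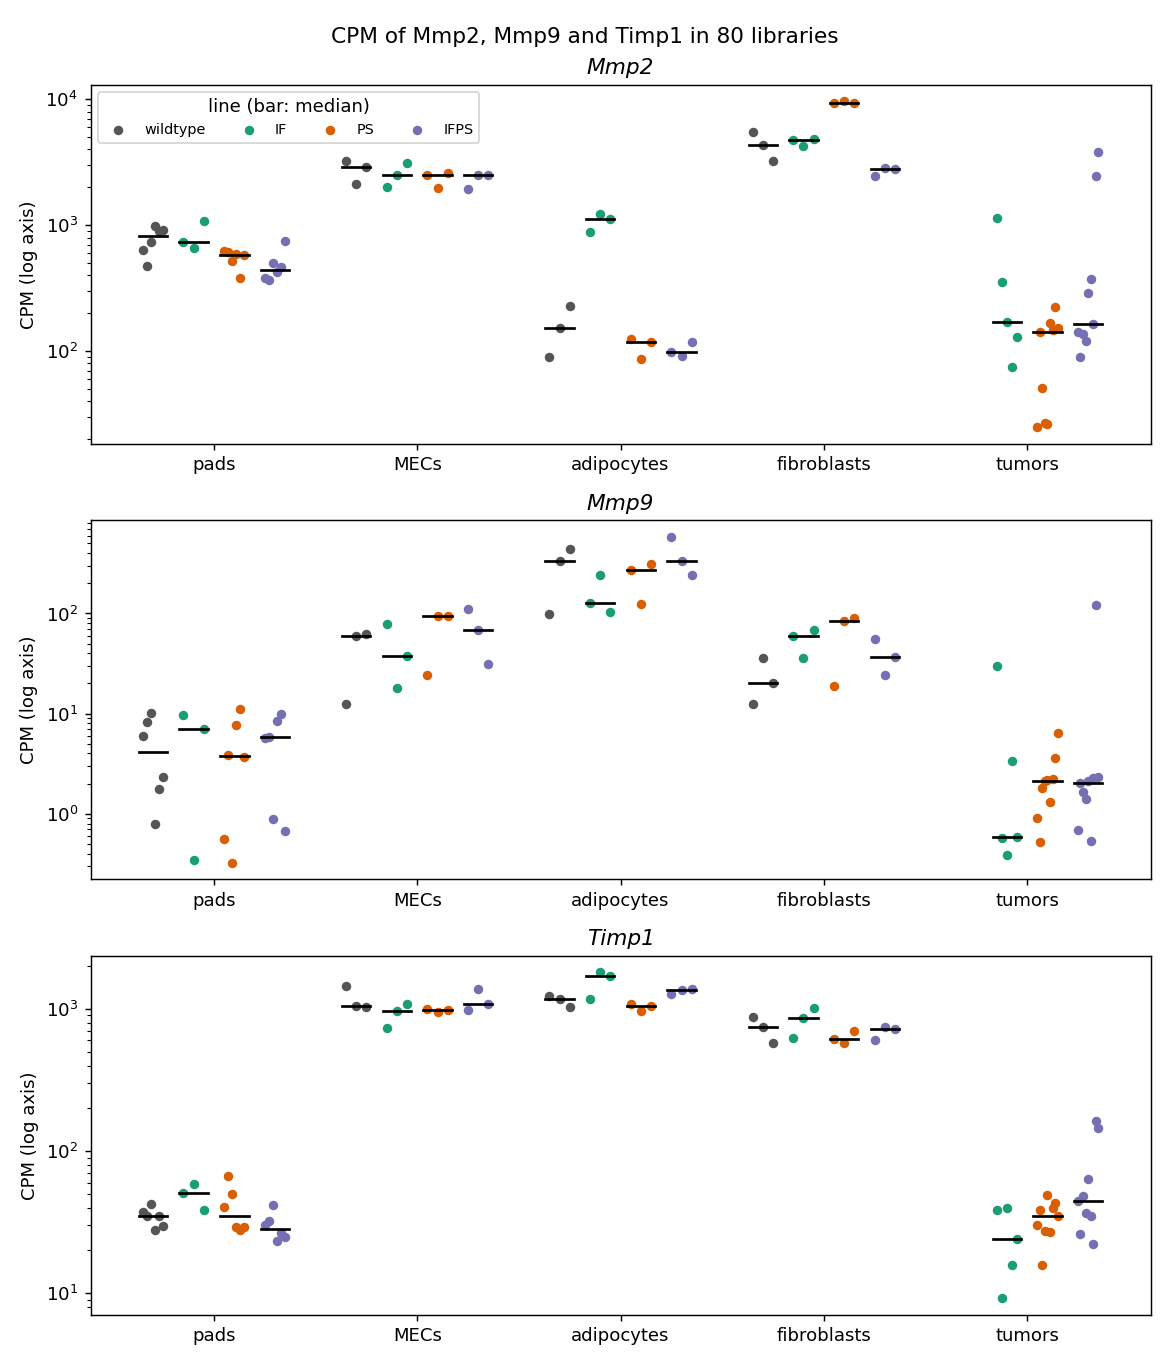
CPM (log axis) of Mmp2, Mmp9 and Timp1 in each of the 80 libraries by tissue, coloured by line, with a bar at each group's median. Timp1 lies at 575 CPM or above in every isolated cell library and at 163 CPM or below in every pad and tumor, and IF adipocytes and PS fibroblasts stand above the other lines of their tissue in Mmp2.

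The members were then ordered by their mean level over all 19 groups. Mmp2 ran from 9457 ± 189 (SD, n = 3) CPM in PS fibroblasts down to 102 ± 13.6 (SD, n = 3) CPM in IFPS adipocytes. Neighbouring groups in that order did not overlap at 3 steps: PS fibroblasts lay above IF fibroblasts, wildtype fibroblasts above wildtype MECs, and IFPS MECs above IF adipocytes. Mmp9 ran from 386 ± 177 (SD, n = 3) CPM in IFPS adipocytes to 2.35 ± 1.77 (SD, n = 9) CPM in PS tumors, with 1 such step, between IF adipocytes at 156 ± 73.3 (SD, n = 3) CPM and PS MECs at 71.1 ± 40.7 (SD, n = 3) CPM. Timp1 ran from 1559.6 ± 341 (SD, n = 3) CPM in IF adipocytes to 25.4 ± 13.5 (SD, n = 5) CPM in IF tumors, with 1 step, between PS fibroblasts at 629 ± 61.0 (SD, n = 3) CPM and IFPS tumors at 65.1 ± 52.4 (SD, n = 9) CPM. All other neighbours in these orders overlapped. The gene most like each member over the 80 libraries, among 17789 genes, was ENSRNOG00000031643 for Mmp2 (Pearson r = 0.967 of log2 CPM), ENSRNOG00000018752 for Mmp9 (0.891) and ENSRNOG00000010176 for Timp1 (0.962). The libraries share 5 tissue classes and 4 genotypes, so these correlations are a description across tissues, and the files do not pair these identifiers with names.

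The effect of the mutated lines was compared with wildtype within each normal tissue, the question being what Nf1 deficiency does in the gland before a tumor forms. In fibroblasts Mmp2 rose in the PS line, did not pass the threshold in the other 2, and differed between every pair of mutated lines. Mmp2 was 9406, 9666 and 9298 CPM in PS fibroblasts, 4793, 4301 and 4829 CPM in IF fibroblasts and 2462, 2844 and 2809 CPM in IFPS fibroblasts, beside the wildtype values above. The 3 PS libraries were above and the 3 IFPS libraries below every wildtype and IF library. PS fibroblasts had a mean 2.16-fold above wildtype, a log2 fold change of 1.06 ± 0.16 (SE, edgeR adjusted p = 0.0032). The mean in IFPS fibroblasts was 1.62-fold below wildtype, a log2 fold change of -0.72 ± 0.16 (SE, edgeR adjusted p = 0.084) that did not pass the threshold, although DESeq2 put it at -0.71 with an adjusted p of 0.0018. Leaving out wildtype fibroblast 3 also gave a call, at -0.89 with an edgeR adjusted p of 0.004. IF fibroblasts differed from wildtype by 0.06 ± 0.16 (SE, edgeR adjusted p = 0.84).

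The differences between mutated fibroblasts were tested directly, and all 3 passed for Mmp2. PS exceeded IF by 1.0 ± 0.16 (SE, edgeR adjusted p = 0.0094). IFPS lay below IF, with a log2 difference of -0.78 ± 0.16 (SE, edgeR adjusted p = 0.0052), and below PS, with a log2 difference of -1.78 ± 0.16 (SE, edgeR adjusted p = 0.00014), where the PS mean was 3.5-fold the IFPS mean. Widespread differences lay beside these calls: of 13879 genes tested in fibroblasts, 21.7% were called for PS against wildtype, 7.66% for IF, 0.0648% for IFPS, 4.78% for PS against IF, 31.4% for IFPS against IF and 40.5% for IFPS against PS. The fibroblast score was 4.38 to 4.47 in PS, 4.42 to 4.61 in wildtype and 4.14 to 4.34 in IFPS fibroblasts, and its part in the Mmp2 differences was not tested.

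Mmp9 and Timp1 gave no call against wildtype in fibroblasts of any line. Mmp9 was 18.7, 83.7 and 90.2 CPM in PS, 59.4, 35.7 and 68.4 CPM in IF and 55.9, 24.3 and 36.5 CPM in IFPS fibroblasts. In each line 2 of 3 libraries lay above all wildtype libraries, and the log2 fold changes were 1.45 ± 0.55 (SE, edgeR adjusted p = 0.082), 1.24 ± 0.55 (SE, edgeR adjusted p = 0.18) and 0.75 ± 0.55 (SE, edgeR adjusted p = 0.45). Without PS fibroblast 1, the lowest, the PS value was 1.88 with an edgeR adjusted p of 0.02. Timp1 was 612, 579 and 697 CPM in PS, 621, 864 and 1021 CPM in IF and 604, 747 and 727 CPM in IFPS fibroblasts. These values overlapped wildtype, with log2 fold changes of -0.27 ± 0.18 (SE, edgeR adjusted p = 0.32), 0.16 ± 0.18 (SE, edgeR adjusted p = 0.61) and -0.10 ± 0.18 (SE, edgeR adjusted p = 0.78).

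Adipocytes of the IF line held more Mmp2 than those of any other group. IF adipocytes had 893, 1223 and 1130.3 CPM of Mmp2, PS adipocytes 124, 86.5 and 119 CPM and IFPS adipocytes 98.1, 91.5 and 118 CPM. Every IF library was above every other adipocyte library, and the IF mean was 6.92-fold the wildtype mean, a log2 fold change of 2.83 ± 0.30 (SE, edgeR adjusted p = 0.00013). PS and IFPS adipocytes lay below IF, with log2 differences of -3.30 ± 0.30 (SE, edgeR adjusted p = 3.2e-05) and -3.42 ± 0.30 (SE, edgeR adjusted p = 3e-05), and they did not differ detectably from wildtype, at -0.47 ± 0.28 (SE, edgeR adjusted p = 0.57) and -0.59 ± 0.28 (SE, edgeR adjusted p = 0.82). About as many genes as not were called beside it: 48.2% of 14304 genes differed between IF and wildtype adipocytes, 52.7% when PS was set against IF and 53% when IFPS was, against 0.378% for PS and 0% for IFPS against wildtype and 0.028% between IFPS and PS. For IFPS against wildtype the unadjusted p was under 0.05 for 927 genes, and DESeq2 called 219. The IF adipocytes also had raised fibroblast and pad-only scores, given above, and MEC scores of 1.49, -0.44, and 1.31 against -1.48 to -0.88 in wildtype. IF adipocyte 2 had the highest Mmp2 and the lowest of the 3 fibroblast, MEC and pad-only scores, at 1.38, -0.44 and -0.45. These scores were still above the highest of wildtype adipocytes, 0.45, -0.88 and -1.37. The part of the scores in the Mmp2 result was not tested. Adipocyte scores were 4.43 to 5.21 in IF and 4.60 to 5.09 in wildtype adipocytes.

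Timp1 was also higher in IF adipocytes, by less. IF adipocytes had 1172, 1812 and 1694 CPM of Timp1, and 2 of the 3 lay above all wildtype libraries. The log2 fold change to wildtype was 0.48 ± 0.15 (SE, edgeR adjusted p = 0.021), and 4 of the 6 fits that left out 1 library lost the call, with adjusted p up to 0.086, as did a fit of these 2 groups alone (adjusted p = 0.12). PS adipocytes had 1080.1, 964 and 1054 CPM, all below IF, with a log2 difference of -0.60 ± 0.15 (SE, edgeR adjusted p = 0.0069). IFPS adipocytes had 1271, 1356 and 1385 CPM, all above wildtype, yet with a log2 fold change of 0.24 ± 0.15 (SE, edgeR adjusted p = 1). Mmp9 overlapped between wildtype and every mutated line, at 126, 239.6 and 103 CPM in IF, 274, 123 and 315 CPM in PS and 583, 334 and 241 CPM in IFPS adipocytes. Its log2 fold changes were -0.86 ± 0.55 (SE, edgeR adjusted p = 0.22), -0.25 ± 0.55 (SE, edgeR adjusted p = 0.91) and 0.43 ± 0.55 (SE, edgeR adjusted p = 1).

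Cultured MECs gave no call for any member in any line, as 0 of 9 tests passed in edgeR and in DESeq2 and none had an unadjusted p under 0.05. Mmp2 was 2003, 2488 and 3132 CPM in IF, 2496, 1964 and 2618 CPM in PS and 1949, 2529 and 2520.2 CPM in IFPS MECs, all overlapping wildtype. Its log2 fold changes were -0.09 ± 0.19 (SE, edgeR adjusted p = 0.85), -0.21 ± 0.19 (SE, edgeR adjusted p = 0.58) and -0.22 ± 0.19 (SE, edgeR adjusted p = 0.73). Mmp9 varied widely, with 79.1, 17.9 and 37.6 CPM in IF, 24.1, 94.3 and 94.9 CPM in PS and 109.8, 68.2 and 31.5 CPM in IFPS MECs, and standard errors of its log2 fold changes near 0.70. Those changes were 0.02, 0.67 and 0.65, so that differences of several-fold were not detectable. Timp1 was 740.1, 960.2 and 1076 CPM in IF, 993, 956 and 991 CPM in PS and 987, 1378 and 1085 CPM in IFPS MECs. The 3 PS libraries were below all wildtype libraries, but the log2 fold change was -0.25 ± 0.16 (SE, edgeR adjusted p = 0.43), and the others were -0.32 ± 0.16 (SE, edgeR adjusted p = 0.35) and -0.01 ± 0.16 (SE, edgeR adjusted p = 0.99). Of 14688 genes tested in MECs, 0.817% were called in the IF line, 2.36% in the PS line and 0.374% in the IFPS line.

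**Figure D2:**
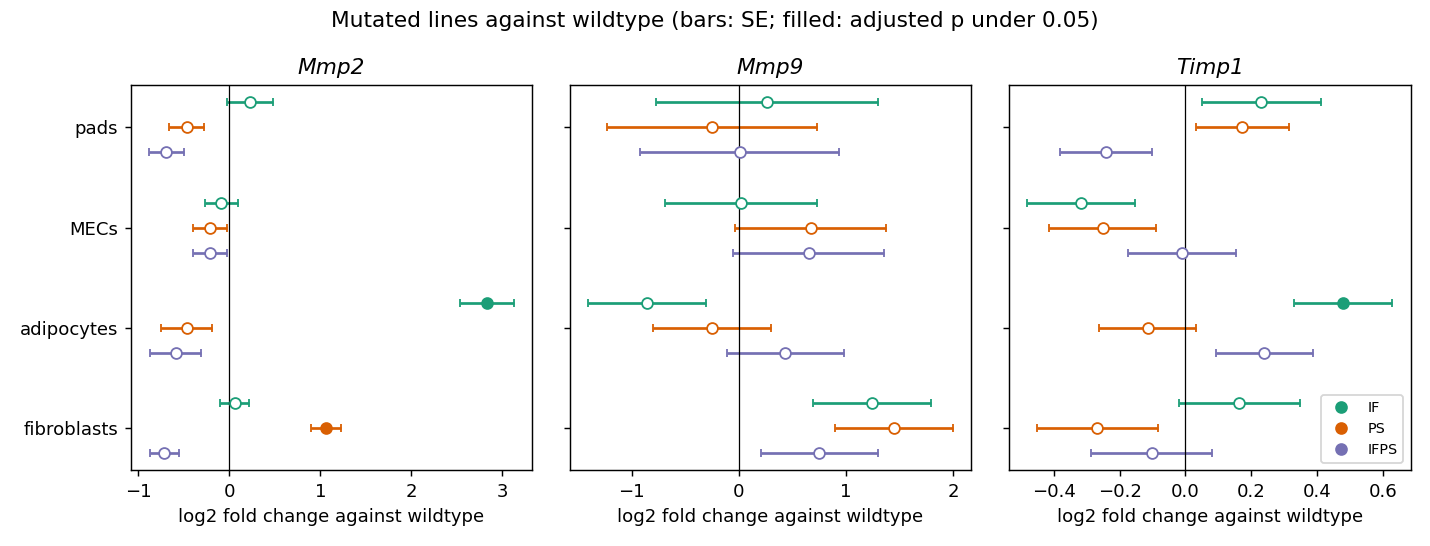
Log2 fold change of each member in IF, PS and IFPS against wildtype within pads, MECs, adipocytes and fibroblasts, with bars of 1 SE and filled points at an edgeR adjusted p under 0.05. The filled points are Mmp2 in IF adipocytes (2.83) and PS fibroblasts (1.06) and Timp1 in IF adipocytes (0.48), and the scale differs between the 3 plots.

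Whether a line's effect differed between tissues was tested in 1 fit of the 57 normal libraries. For Mmp2 the effect of IF differed between the 4 tissues (edgeR adjusted p = 2.6e-08), as did that of PS (adjusted p = 0.0031), and that of IFPS did not pass (adjusted p = 0.85). The PS effect was larger in fibroblasts than in MECs by 1.32 ± 0.36 (SE, edgeR adjusted p = 0.041) on the log2 scale, a call that without the filter on low counts fell just outside the threshold (adjusted p = 0.058). Mmp9 passed for no line, with adjusted p of 0.52 for IF, 0.65 for PS and 0.99 for IFPS, and Timp1 likewise, with 0.075, 0.41 and 0.74. Of 17126 genes tested, 36.8% depended on the tissue for IF, 9.36% for PS and 1.56% for IFPS, and 1.86% differed between fibroblasts and MECs for PS.

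In whole pads no member passed the threshold in any line, as 0 of 9 tests passed in edgeR and in DESeq2 and 2 had an unadjusted p under 0.05. Mmp2 in PS pads was 383 at the lowest, 582 at the median and 624 at the highest CPM, in IFPS pads 365 at the lowest, 444 at the median and 747 at the highest CPM, and in the 3 IF pads 736, 664 and 1084 CPM. Of the 6 IFPS pads, 4 lay below every wildtype pad. The log2 fold changes of Mmp2 were -0.69 ± 0.19 (SE, edgeR adjusted p = 0.54) in IFPS, -0.47 ± 0.19 (SE, edgeR adjusted p = 0.43) in PS and 0.23 ± 0.25 (SE, edgeR adjusted p = 1) in IF pads, with unadjusted p of 0.0021, 0.026 and 0.37. Across 16384 genes tested in pads edgeR called 0% for IF, 0.0061% for PS and 0% for IFPS. The unadjusted p was under 0.05 for 306 and 1297 genes in the IF and IFPS comparisons, where DESeq2 called 0 and 21, none of them a member. Titles divide the pads into numbers 1 to 12 and 13 to 21, all IF pads being among the first, and Mmp2 of wildtype pads stood apart between these sets, with a mean of 619 CPM in the first and 939 CPM in the second. In IFPS pads the means were 417 and 545 CPM and in PS pads 584 and 516 CPM. The means of both mutated lines were therefore below wildtype within each set, but for PS the first set differed little. There PS pads, at 519 to 624 CPM, lay within the wildtype range of 476 to 741 CPM. In the second set PS pads had 383 to 587 CPM and wildtype pads 905 to 990 CPM.

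Timp1 and Mmp9 showed as little in pads. Timp1 was 50.3, 58.9 and 38.7 CPM in IF pads, 2 of which lay above all wildtype pads, 27.8 to 66.6 CPM in PS and 23.3 to 41.5 CPM in IFPS pads. Its log2 fold changes were 0.23 ± 0.18 (SE, edgeR adjusted p = 1), 0.17 ± 0.14 (SE, edgeR adjusted p = 0.7) and -0.24 ± 0.14 (SE, edgeR adjusted p = 0.69). Timp1 also moved with the set of title numbers: in PS pads it averaged 52.2 CPM in the first set and 28.8 CPM in the second, and in wildtype pads 38.3 and 30.9 CPM. Within the second set PS pads were slightly below wildtype, at a log2 fold change of -0.14. Mmp9 ranged over 0.798 to 10.1 CPM in wildtype, 0.347 to 9.79 CPM in IF, 0.324 to 11.2 CPM in PS and 0.676 to 10.001 CPM in IFPS pads. Its log2 fold changes of 0.27 ± 1.03 (SE, edgeR adjusted p = 1), -0.25 ± 0.98 (SE, edgeR adjusted p = 0.96) and 0.01 ± 0.93 (SE, edgeR adjusted p = 1) carried standard errors near 1. Within the second set PS pads exceeded wildtype by 2.15 (edgeR adjusted p = 0.21), so the direction in PS pads depended on the set.

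The wide spread of Mmp9 among pads followed other genes. Over all 21 pads the log2 CPM of Mmp9 rose with the pad-only score, with Pearson r = 0.97 and Spearman rho = 0.91, each with a permutation p of 1e-05, the smallest that 100000 resamples can give, and adjusted p of 0.0002 and 0.0006 over 60 relations in pads that were chosen after seeing the data. Without the 2 pads farthest from the median score r was 0.95. Within the 12 pads of title numbers 1 to 12 r was 0.97 (rho 0.79) and within the 9 of title numbers 13 to 21 it was 0.98 (rho 0.97). The pad-only genes were selected in wildtype libraries, and in the 15 pads of the mutated lines, which took no part in that selection, r was also 0.97 (rho 0.89). Each of the 4 lines had at least 1 pad with Mmp9 below 1 CPM. Which cells the pad-only genes come from was not analysed here.

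Mmp2 in pads followed the fibroblast score instead. Over 21 pads r was 0.75 and rho 0.73 (permutation adjusted p of 0.0014 and 0.0036), and r without the 2 farthest pads was 0.63. In the 12 pads of title numbers 1 to 12 r was 0.84 (permutation adjusted p = 0.0062). In the 9 pads of title numbers 13 to 21 the relation did not pass the adjustment, with r = 0.65 and rho = 0.57 (permutation adjusted p of 0.17 and 0.27) and r = 0.44 without the 2 farthest. In the 15 pads of the mutated lines r was 0.72 (permutation adjusted p = 0.013), which fell to 0.61 and no longer passed (permutation adjusted p = 0.073) with score genes chosen at 8-fold. The fibroblast score had a range of 2.32 to 2.60 in wildtype, 2.18 to 2.57 in PS and 2.13 to 2.39 in IFPS pads, beside the lower Mmp2 of IFPS pads, and its part in that difference was not tested. Timp1 had no relation in pads that passed the adjustment.

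Each line's tumors were set against its own pads, in 1 fit with a shared estimate of the spread. In PS tumors Mmp2 was far below the pad level. PS tumors had 24.9, 141, 50.8, 27.1, 26.5, 166, 148, 224, 152 CPM from tumor 1 to tumor 9, and all 9 lay below the lowest of the 6 PS pads. The mean of 107 ± 74.8 (SD, n = 9) CPM stood against 549.9 ± 89.3 (SD, n = 6) CPM in pads, a 5.16-fold lower mean and a log2 fold change of -2.35 ± 0.69 (SE, edgeR adjusted p = 0.0079). The call was lost with the 3 PS pads of title numbers 13 to 21 alone, at -2.19 with an edgeR adjusted p of 0.095. Timp1 gave no call there: PS tumors had 15.8 at the lowest, 34.98 at the median and 48.7 at the highest CPM, overlapping the pads, with a log2 fold change of -0.23 ± 0.35 (SE, edgeR adjusted p = 0.63). Mmp9 ranged over 0.528 to 6.41 CPM in PS tumors, with a log2 fold change of -0.92 ± 1.05 (SE, edgeR adjusted p = 0.51). The fibroblast score was 0.51 to 1.56 in PS tumors and 2.18 to 2.57 in PS pads, without overlap. Its part in the lower Mmp2 of PS tumors was not tested.

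IF tumors varied more. The 5 IF tumors had 1147, 356, 171, 74.7 and 131 CPM of Mmp2, so that tumor 1 lay above all 3 IF pads and the other 4 below all of them. The log2 fold change was -1.14 ± 0.94 (SE, edgeR adjusted p = 0.37). Fibroblast scores were 1.04 to 1.69 in IF tumors and 2.32 to 2.63 in IF pads. Timp1 was 38.6, 9.2, 39.5, 15.7 and 23.9 CPM, and 4 of the 5 lay below the lowest IF pad, tumor 1 only just. Its log2 fold change was -0.95 ± 0.48 (SE, edgeR adjusted p = 0.15). Mmp9 was 29.9, 0.578, 0.389, 3.39 and 0.59 CPM, and tumor 1, the highest in Mmp2, was also the highest in Mmp9. The log2 fold change of Mmp9 was 0.29 ± 1.48 (SE, edgeR adjusted p = 0.9) and turned to -2.16 without that tumor and to -0.22 without IF pad 2.

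IFPS tumors split into 7 libraries with low Mmp2 and 2 with very high Mmp2. Tumors 8 and 9 had 2444 and 3826 CPM of Mmp2, above all 6 IFPS pads, and the other 7 had 90.1 to 377 CPM. Timp1 was 44.6, 26.0, 48.2, 36.7, 64.0, 34.8, 22.1, 163, 146 CPM from tumor 1 to tumor 9, so the same 2 tumors were the highest in Timp1. Mmp9 was 123 CPM in tumor 8, 2.32 CPM in tumor 9 and 0.538 to 2.28 CPM in the other 7. Tumors 8 and 9 also had the lowest MEC scores of all 23 tumors, given above, and the part of this in their Mmp2 was not tested. Fibroblast scores were 0.99 to 2.20 in IFPS tumors and 2.13 to 2.39 in IFPS pads. With all 9 tumors Mmp2 differed from IFPS pads by 0.79 ± 0.71 (SE, edgeR adjusted p = 0.41), and limma, which compares means of log2 CPM, gave -0.52 (adjusted p = 0.59). Without tumors 8 and 9, a choice made after seeing their values, Mmp2 in IFPS tumors was below pads at -1.29 (edgeR adjusted p = 0.046). Timp1 in IFPS tumors exceeded pads by 1.14 ± 0.37 (SE, edgeR adjusted p = 0.02), with 5 of 9 tumors above every pad. Without tumors 8 and 9 it was 0.48 (edgeR adjusted p = 0.19), and without tumor 8 alone 0.84 (adjusted p = 0.056). Fits with either set of pads alone, with the 2 groups alone or with limma also missed the threshold (adjusted p from 0.07 to 0.26). Mmp9 differed by 1.52 ± 1.12 (SE, edgeR adjusted p = 0.32), which turned to -1.66 without tumor 8.

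Beside these values, 23.3% of 17227 genes tested were called between IF tumors and pads, 38.9% for the PS line and 27.9% for IFPS. The test that the tumor effect differed between the 3 lines passed for no member, with edgeR adjusted p of 0.19 for Mmp2, 0.62 for Mmp9 and 0.13 for Timp1, and for 0.296% of all genes. Among the tumors themselves 0 of 9 tests passed in edgeR either, while 4 had an unadjusted p under 0.05 and DESeq2 called 2: Mmp2 in IFPS exceeded PS by 2.97 ± 0.82 (SE, edgeR adjusted p = 0.061) and IF by 1.17 ± 0.94 (SE, edgeR adjusted p = 0.49), and the difference of PS from IF was -1.80 ± 0.87 (SE, edgeR adjusted p = 0.3). DESeq2 called the first (2.98, adjusted p = 0.0024), edgeR called it in 5 of the 18 fits that left out 1 tumor (lowest adjusted p = 0.041), and without tumors 8 and 9 edgeR put it at 0.84. For Timp1 the log2 differences were 0.92, 1.35 and 0.43, with edgeR adjusted p of 0.15, 0.089 and 0.68. For Mmp9 they were 2.66, 1.12 and -1.53, with adjusted p of 0.16, 0.65 and 0.56. Of 15966 genes tested, 0% were called for IFPS against PS tumors, 4.25% for IFPS against IF and 2.48% for PS against IF. Between IFPS and PS tumors the unadjusted p was under 0.05 for 3537 genes, and DESeq2 called 1089.

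Over all tumors and within PS tumors Mmp2 followed the fibroblast score, as it did over all pads. Because IFPS tumors 8 and 9 stood apart in Mmp2, the relation was computed without them, a choice made after seeing the data. Over the other 21 tumors r was 0.86 and rho 0.89, with permutation p of 1e-05 for both and adjusted p of 4e-05 over 4 such relations, and r without the 2 tumors farthest from the median score was 0.90. With all 23 tumors r was 0.83 (rho 0.90). In the 9 PS tumors r was 0.89 and rho 0.97 (exact permutation adjusted p of 0.0013 and 0.0038 over 45 relations), and r without the 2 farthest was 0.89. The 3 PS tumors with the lowest Mmp2, tumors 1, 4 and 5 at 24.9, 27.1 and 26.5 CPM, had the lowest fibroblast scores, 0.51, 0.79 and 0.81. In all 9 IFPS tumors the relation did not pass. With score genes chosen at 8-fold r was 0.48 and rho 0.58 there (exact permutation adjusted p of 0.39 and 0.49). With those at 4-fold, as in the other values here, r was 0.65 and rho 0.87 (exact permutation adjusted p of 0.19 and 0.0675 over 45 relations). In the 7 IFPS tumors other than 8 and 9, r was 0.92 and rho 0.82 (exact permutation adjusted p of 0.024 and 0.068 over 4 relations). There r fell to 0.37 without the 2 farthest, tumors 5 and 6, so the relation rested on them. Tumor 8 had a fibroblast score of 1.42, well inside the range of 0.99 to 2.20 of IFPS tumors, beside its 2444 CPM of Mmp2. Mmp2 and Timp1 showed no relation in those 7 IFPS tumors (r = 0.36, rho = 0.14, exact permutation adjusted p of 0.56 and 0.78), although tumors 8 and 9 were the highest in both. In PS tumors Mmp2 and Timp1 had r = 0.23 and rho = 0.08 (exact permutation adjusted p of 0.72 and 0.88). Mmp9 in tumors was related to no score and to neither other member after adjustment, the pad-only score included, with r = -0.18 over 23 tumors. Over the same tumors the MEC score had r = -0.75 with Mmp2 and -0.59 with Timp1 (permutation adjusted p of 0.00435 and 0.0405). Its rho was only -0.25 and 0.07, and without the 2 farthest tumors r was -0.36 and 0.22.

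**Figure D3:**
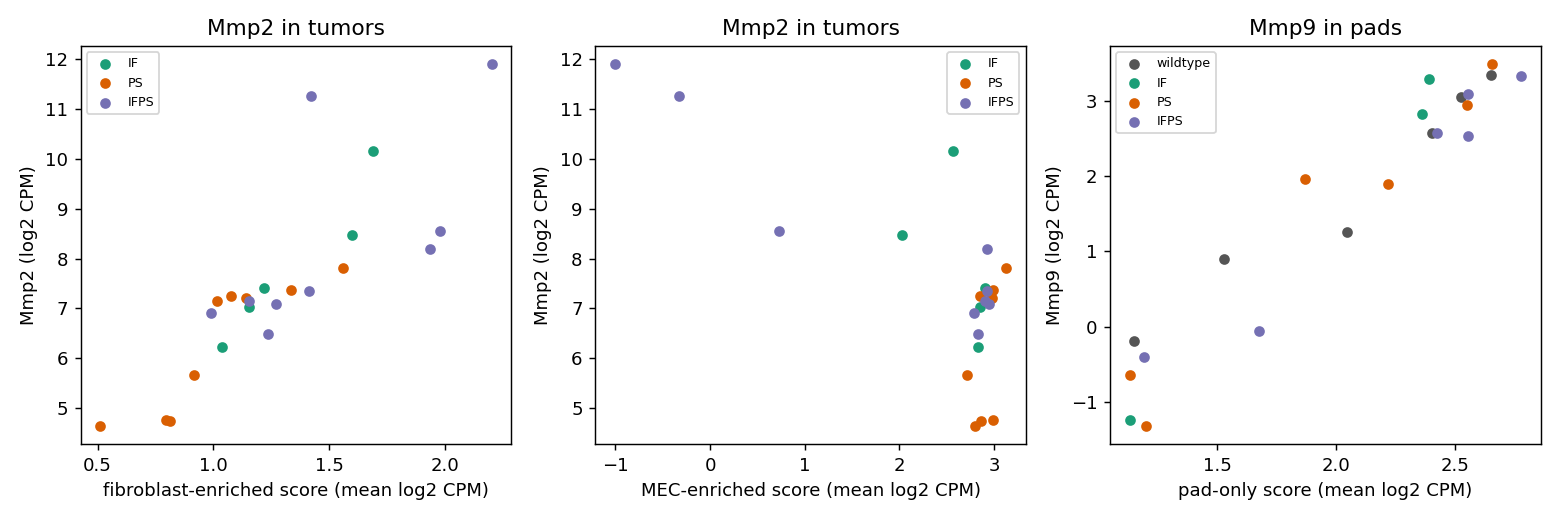
Log2 CPM of a member against a score (mean log2 CPM of a set of genes) in single libraries coloured by line: Mmp2 against the fibroblast score and the MEC score in 23 tumors, and Mmp9 against the pad-only score in 21 pads. Mmp2 rises with the fibroblast score in tumors (r = 0.86 without the 2 IFPS tumors highest in Mmp2), those 2 have the lowest MEC scores, and Mmp9 rises with the pad-only score in pads (r = 0.97).

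The level of a metalloproteinase relative to its inhibitor was compared through the log2 ratio of their counts within each library, which does not depend on the scaling between libraries. The ratio itself depends on transcript lengths, and differences between groups do not. In PS tumors the ratio of Mmp2 to Timp1 was 1.27 ± 1.29 (SD, n = 9) against 3.82 ± 0.47 (SD, n = 6) in PS pads, with all 9 tumors (-0.88 to 2.63) below all 6 pads (3.19 to 4.32). The difference of -2.56 had an exact permutation p of 0.0008, and 0.024 after adjustment over 30 such tests, which rose to 0.055 with PS pads of title numbers 1 to 12 alone. IFPS tumors, at 2.65 ± 1.15 (SD, n = 9), lay below IFPS pads, at 4.0 ± 0.53 (SD, n = 6), with a difference of -1.36 and an exact permutation p of 0.024 that did not pass the adjustment (0.36). Tumors 8 and 9 were high in both genes, and their ratios of 3.90 and 4.71 fell within the pad range of 3.51 to 4.92. IF tumors differed from IF pads by -0.66 (exact permutation p = 0.57).

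In isolated cells the same ratio set PS and IFPS fibroblasts apart on either side of wildtype. PS fibroblasts had 3.91 ± 0.16 (SD, n = 3), wildtype 2.57 ± 0.08 (SD, n = 3) and IFPS fibroblasts 1.97 ± 0.05 (SD, n = 3), with no overlap. The differences of 1.35 and -0.60 each had an exact permutation p of 0.1, the smallest that 3 against 3 samples can give. IF adipocytes had -0.51 ± 0.11 (SD, n = 3) against -2.98 ± 0.80 (SD, n = 3) in wildtype, a difference of 2.46 with the same p of 0.1 by exact permutation, and none of these 3 passed the adjustment (0.5). Pads differed from wildtype in this ratio by -0.41 for IF, -0.64 for PS and -0.46 for the IFPS line, with exact permutation p of 0.35, 0.065 and 0.16, none of which passed the adjustment. The ratio of Mmp9 to Timp1 passed the adjustment in none of its 15 tests, and its smallest exact permutation p was 0.17, for IFPS tumors against pads.

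**Figure D4:**
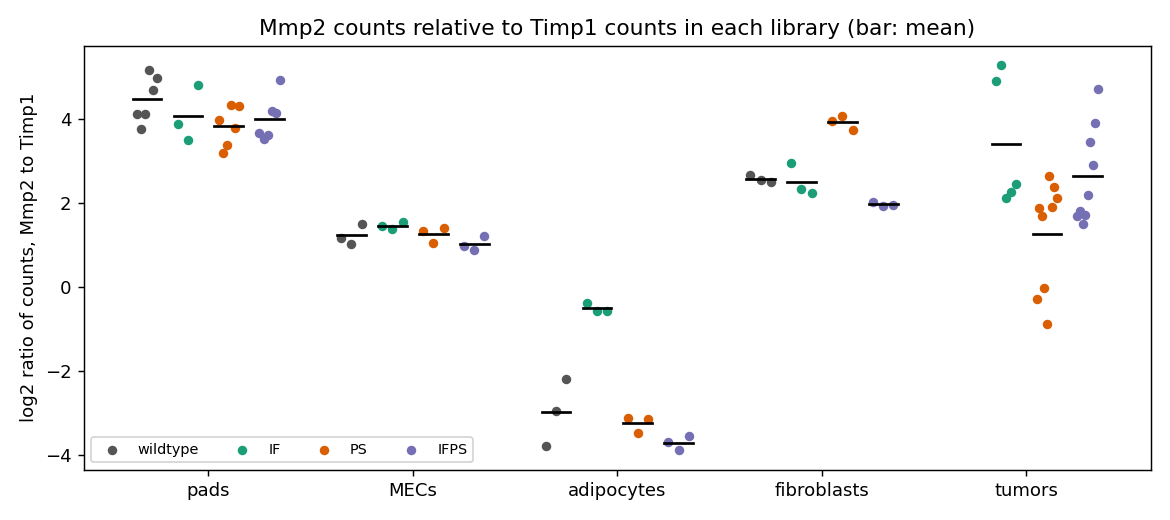
Log2 ratio of Mmp2 to Timp1 counts in each library by tissue, coloured by line, with a bar at each group's mean. All 9 PS tumors lie below all 6 PS pads, PS fibroblasts lie above and IFPS fibroblasts below wildtype fibroblasts, and IF adipocytes lie above the other adipocytes.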

How the data were processed

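The authors deposited raw gene counts for 80 libraries in 1 table of 32883 genes by Ensembl identifier. Per the labels' protocols, mRNA libraries were sequenced in pairs of 50 bases. Per the submitters' processing notes, reads were trimmed with Trim Galore and aligned with STAR 2.5.2b to Rnor_6.0. The counter, annotation release and strand setting are not given in the sources used here, so reads shared with overlapping or antisense genes cannot be told apart. Total counts per library ranged from 17344717 to 37293141.

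From the counts, CPM and log2 CPM (prior count 2) were computed with TMM factors. Groups were compared with edgeR 4.0.16 (R 4.3.3) quasi-likelihood tests on genes kept by edgeR's filter on low counts, fitted across all genes, with Benjamini-Hochberg adjustment over all genes tested and a threshold of 0.05. The fit of pads alone and the fit of all normal tissues held the 2 sets of pad title numbers as a covariate. The fits of tumors against pads and of wildtype tissues against each other held no such covariate. Ratios were tested by exact permutation and relations by exact permutation or 100000 resamples (scipy 1.17.1), two-sided. The scripts were tested on simulated data. No duplicated library was found: the 166 pairs within groups had a chi-square of at least 8.70 per degree of freedom. Alternatives were RLE size factors, no filter, DESeq2 1.42.0, limma 3.58.1, only the groups compared, single sets of pads, a block on title numbers, other prior counts and score thresholds, and leaving out each library.

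The rule for named genes was the 3 members and, for each, the gene with the most similar level over all libraries. The members, lists and tests were chosen with earlier results of these data known. Planned lists of other metalloproteinases, inhibitors and cell type markers were not analysed, because their identifiers were not paired with symbols in the sources used here. Of the members, Timp1 alone was matched in RefSeq's promoter table. The labels do not say whether libraries of a group come from separate animals.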

Additional observations from a re-analysis of the deposited data

Results flagged for a closer look

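Of 18 checks of a member's CPM within a group of 4 to 10 samples, 4 held 1 library with a gap to the others above Dixon's critical value. That value is passed about 1 time in 20 by chance if values are normally distributed. CPM were not tested for that, and the check was not run on log2 CPM, so the number of flags is a description. They were Mmp2 in IFPS pad 6 at 746.95 CPM, Mmp2 in IF tumor 1 at 1147.28 CPM, Mmp9 in IF tumor 1 at 29.86 CPM and Mmp9 in IFPS tumor 8 at 122.83 CPM. On the CPM scale IF tumor 1 was thus flagged in both metalloproteinases, while its Timp1 of 38.6 CPM was second among the 5 IF tumors.

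The effect of a line on Mmp2 differed between tissues by a test of the difference itself: for IF over the 4 normal tissues (edgeR adjusted p = 2.6e-08), for PS over the same tissues (adjusted p = 0.0031), and for PS between fibroblasts and MECs (adjusted p = 0.041). Of 17126 genes tested, 36.8%, 9.36% and 1.86% were called in these tests. The last call was lost without the filter on low counts (edgeR adjusted p = 0.058). The IF effect was positive in 3 of 3 adipocyte libraries, which had raised fibroblast, MEC and pad-only scores, and their part in the result was not tested.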

How the results depend on the processing

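Of 147 results chosen from the tests, ratios and relations of the members, 51 passed their threshold. Of these, 41 did so under every alternative tried, while 85 of the 96 others passed under none. Relations were included only where they passed, apart from Mmp2 with the fibroblast score in IFPS tumors and with Timp1 in PS tumors. Comparisons between mutated lines in normal tissues, and between fibroblasts and MECs, were included only for some members. These shares therefore do not describe all tests run. In fits of only the 2 groups compared, log2 values were -0.49 for Mmp9 in IF pads against wildtype, 0.47 for Timp1 in IF adipocytes (edgeR adjusted p = 0.12), 1.20 for Timp1 in IFPS tumors against pads (0.079) and -0.67 for Mmp2 in wildtype MECs against fibroblasts (0.04). With pads of title numbers 1 to 12 alone, Mmp9 was -0.49 in IF pads, -0.94 in IFPS pads and 0.59 in PS tumors, and Timp1 was 0.92 in IFPS tumors (0.26). The Mmp2 to Timp1 ratio was then 0.061 in IF pads and -2.24 in PS tumors (exact permutation adjusted p = 0.055), and the Mmp9 to Timp1 ratio -1.18 in IFPS pads and 1.70 in PS tumors. With pads of title numbers 13 to 21 alone, Mmp9 was 2.15 and Timp1 -0.14 in PS pads, Mmp2 -2.19 (edgeR adjusted p = 0.095) and Timp1 0.32 in PS tumors, and Timp1 1.48 in IFPS tumors (0.07). The Mmp2 to Timp1 ratio was then -1.76 in IFPS tumors (exact permutation adjusted p = 0.048), and the Mmp9 to Timp1 ratio 2.26 in PS pads and -2.03 in PS tumors (0.036). DESeq2 gave -0.71 for Mmp2 in IFPS fibroblasts (adjusted p = 0.0018), 1.36 for Timp1 in IFPS against IF tumors (0.025), 2.98 for Mmp2 in IFPS against PS tumors (0.0024) and an adjusted p of 0.041 for the difference of the Timp1 tumor effect between lines. Without the filter on low counts the Mmp2 effect of PS in fibroblasts against MECs was 1.34 (edgeR adjusted p = 0.058). On log2 CPM, limma gave tumor effects of -0.74 for Mmp9 in IF, -0.52 for Mmp2, -0.50 for Mmp9 and 0.83 for Timp1 (adjusted p = 0.07) in IFPS, and 0.11 for Mmp9 in PS against IF tumors. Without IFPS tumors 8 and 9, tumor effects in IFPS were -1.29 for Mmp2 (edgeR adjusted p = 0.046), -1.71 for Mmp9 and 0.48 for Timp1 (0.19), IFPS against IF tumors gave -0.95 for Mmp2 and -2.14 for Mmp9, and IFPS against PS tumors gave -0.61 for Mmp9. Pearson r was then 0.095 between Mmp2 and Timp1 over all tumors, where it was 0.57 with them, 0.36 in IFPS tumors, where it was 0.89, and 0.92 between Mmp2 and the fibroblast score in IFPS tumors, where it was 0.65. The cause of these changes was not tested.

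Leaving out 1 library at a time, Mmp2 ranged from -0.011 to 0.36 for IF against wildtype pads, -0.26 to 0.057 for IF against wildtype MECs, -0.12 to 0.28 for IF against wildtype fibroblasts, -0.89 to -0.50 for IFPS against wildtype fibroblasts and 2.13 to 3.17 for IFPS against PS tumors. Leaving out 1 library at a time, Mmp9 ranged from -0.37 to 0.82 for IF against wildtype pads, -0.69 to 0.19 for PS against wildtype pads, -0.35 to 0.34 for IFPS against wildtype pads, -0.68 to 0.40 for IF against wildtype MECs, -0.67 to 0.16 for PS against wildtype adipocytes, 1.13 to 1.92 for PS against wildtype fibroblasts, -2.16 to 0.95 for IF tumors against pads, -1.66 to 1.81 for IFPS tumors against pads, -1.89 to 0.92 for PS against IF tumors, -2.07 to 3.58 for IFPS against IF tumors, -0.54 to 3.01 for IFPS against PS tumors and -2.64 to -1.76 for pad against fibroblast in wildtype. Leaving out 1 library at a time, Timp1 ranged from -0.16 to 0.16 for IFPS against wildtype MECs, 0.35 to 0.64 for IF against wildtype adipocytes, -0.40 to -0.12 for IFPS against IF adipocytes, -0.0019 to 0.33 for IF against wildtype fibroblasts, -0.25 to 0.063 for IFPS against wildtype fibroblasts, 0.84 to 1.27 for IFPS tumors against pads, -0.17 to 0.20 for MEC against adipocyte in wildtype and 0.43 to 0.74 for adipocyte against fibroblast in wildtype. Leaving out libraries was not planned for ratios, relations and tests of dependence on tissue, and was not run for them.

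Title numbers are shared between tissues. Over all genes, deviations from group means of same-numbered samples correlated over 0.1 in 11 of 12 pairs of MECs and fibroblasts (0.068 to 0.195), and all 12 matched best with their own number, a hint from the data and not from the design. In the other combinations of tissues 0 to 3 of 12 pairs were over 0.1. The numbers were taken to pair samples only where every pair was over 0.1, which no combination of tissues met. For Timp1 itself such deviations had r = 0.85 between MECs and fibroblasts and 0.84 between adipocytes and fibroblasts. Each had an exact permutation p of 0.015, and 0.125 after adjustment over 18 relations. The other relations ran from r = -0.84 to 0.77. Whether same-numbered samples are independent is not known. A replicate block on title number changed 1 call: the IF effect on Timp1 in fibroblasts against MECs was 0.47 ± 0.11 (SE, edgeR adjusted p = 0.045) with the block, 0.47 ± 0.26 (adjusted p = 0.41) without it in the same samples and 0.52 ± 0.26 (adjusted p = 0.72) in the fit of all normal tissues. With the block, Mmp2 in wildtype pads against MECs was -2.26 (-2.25 without the block in the same samples), and the PS effect on Mmp2 in fibroblasts against MECs was 1.31 (edgeR adjusted p = 0.0035). Mmp9 had as few as 9 counts in a pad, which limits its precision in such libraries. Its counts in PS pads ran from 9 to 358, and the part of depth in that spread was not tested.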

Other observations

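Other relations of the metalloproteinases to the mix of genes in whole pads were seen among the 60 computed after seeing the data. Mmp9 rose with the adipocyte score over 21 pads, with Pearson r = 0.65 and Spearman rho = 0.63 (permutation adjusted p of 0.0062 and 0.023) and r = 0.53 without the 2 farthest pads. In the 12 pads of title numbers 1 to 12 r was 0.77 (rho 0.90), and in the 15 pads of the mutated lines it was 0.71 (rho 0.69). In the 9 pads of title numbers 13 to 21 it did not pass the adjustment, with r = 0.42 and rho = 0.033 (permutation adjusted p of 0.42 and 0.95) and r = -0.12 without the 2 farthest. Mmp2 fell with the MEC score over 21 pads (r = -0.58, rho = -0.57, permutation adjusted p of 0.020 and 0.034), with r = -0.49 without the 2 farthest. The latter passed the adjustment neither within title numbers 1 to 12 (r = -0.35, permutation adjusted p = 0.42) or 13 to 21 (r = -0.74, permutation adjusted p = 0.072) nor in the mutated lines (r = -0.50, permutation adjusted p = 0.19).

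In the 9 pads of title numbers 13 to 21, taken without regard to line, the metalloproteinases moved in opposite directions. Between Mmp2 and Mmp9 r was -0.86 and rho -0.85 (exact permutation adjusted p of 0.023 and 0.031), and r without the 2 farthest was -0.85. Over all 21 pads that relation was r = -0.29 and rho = -0.30 (permutation adjusted p of 0.37 and 0.36). Timp1 had no such relation to Mmp2 or Mmp9 in pads that passed the adjustment. In those 9 pads wildtype had 905 to 990 CPM of Mmp2 and 0.798 to 2.33 CPM of Mmp9. PS pads had 383 to 587 and 3.65 to 11.2 CPM, and IFPS pads averaged 545 and 6.39 CPM. There the pad-only score had r = -0.84 with Mmp2 (exact permutation adjusted p = 0.033). The MEC score had r = 0.83 and rho = 0.77 with Mmp9 (exact permutation adjusted p of 0.0195 and 0.079). The part of line and scores in the opposite movement was not tested.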
